A study of Mus musculus with 15 samples.

Results

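The CC chemokine genes and monocyte receptor genes followed here are 9 genes, chosen by name, with earlier results of these data known. They are the ligands *Ccl2*, *Ccl7*, *Ccl8*, *Ccl12*, *Ccl3*, *Ccl4* and *Ccl5* and the receptors *Ccr1* and *Ccr2*, and all 9 were found among the 18279 genes of the table. RNA was sequenced from 15 whole tumors grown under the skin of female BALB/c mice, aged 4 to 6 weeks, from Renca cells, a mouse renal carcinoma line. Tumors 1 to 5 came from control cells, tumors 6 to 10 from *Pbrm1* KO clone 4 and tumors 11 to 15 from *Pbrm1* KO clone 18. *Pbrm1* encodes a chromatin remodeling subunit that is often lost in human renal cancer, and the study asked how its loss changes the immune environment of the tumor. The control cells are named parental Renca in the labels and control knockout cells in the study's methods. Each knockout line grew from sorted single cells after CRISPR/Cas9 editing, so loss of *Pbrm1* and differences between cell lines cannot be told apart. Whole tumors also hold cells of the host, in which *Pbrm1* was not edited. The labels describe mice with and without PD-1 antibody and do not assign the sequenced tumors to either. Nothing in the labels ties each tumor to its own mouse, so p values measure the spread between these tumors.

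CC chemokines are small secreted proteins that direct white blood cells along a gradient by way of G protein coupled receptors. In mice, CCL2, CCL7 and CCL12 are ligands of CCR2, the receptor that brings classical monocytes out of the bone marrow and into inflamed or malignant tissue. CCL3 and CCL5 act through CCR1, which is carried by monocytes, macrophages and neutrophils. CCL4 is a close relative of CCL3 that attracts lymphocytes and macrophages. Mouse CCL8 is known as a ligand of CCR8. In tumors, these ligands are made by tumor cells, fibroblasts and by the myeloid cells that they recruit.

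The ligand genes lie in a pair of clusters on chromosome 11 and the receptor genes near each other on chromosome 9 (GRCm38, GENCODE M21 gene models). *Ccl2* (chr11:82035571-82037453), *Ccl7* (chr11:82045712-82047525), *Ccl12* (chr11:82101845-82103400) and *Ccl8* (chr11:82115185-82116799) lie on the plus strand within 81.2 kb. After a gap of 1409 kb follow *Ccl5* (chr11:83525778-83530518, minus strand), *Ccl3* (chr11:83647844-83649355, minus strand) and *Ccl4* (chr11:83662584-83664683, plus strand), within 138.9 kb. *Ccr1* (chr9:123962124-123968692, minus strand) and *Ccr2* (chr9:124101950-124113557, plus strand) span 151.4 kb. Reads that fit more than 1 gene of a family could be lost or split. No window of 50 bases in the transcripts of 8 of the 9 genes, all but *Ccr2*, occurred in a transcript of another gene, and the longest run that *Ccl2* and *Ccl7* share was 23 bases. *Ccl2* overlaps the gene *Gm17268* on the other strand, and the strand setting of the counting is not given in the sources used here.

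Promoter sequence was at hand for 5 of the 9 genes (RefSeq, GRCm38.p6), and *Ccl2*, *Ccl7*, *Ccl4* and *Ccl5* were not among them. Shown are the 250 bases before the start of *Ccl8* (chr11:82114935-82115184, plus strand), *Ccl12* (chr11:82101595-82101844, plus strand) and *Ccr1* (chr9:123968693-123968942, minus strand), because these are the members whose promoter held a searched motif. The capitals mark the match.
Ccl8: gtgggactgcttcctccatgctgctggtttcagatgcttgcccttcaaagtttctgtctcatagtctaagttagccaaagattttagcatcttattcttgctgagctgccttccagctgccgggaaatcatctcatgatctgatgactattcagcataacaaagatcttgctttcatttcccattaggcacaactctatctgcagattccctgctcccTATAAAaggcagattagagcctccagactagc
Ccl12: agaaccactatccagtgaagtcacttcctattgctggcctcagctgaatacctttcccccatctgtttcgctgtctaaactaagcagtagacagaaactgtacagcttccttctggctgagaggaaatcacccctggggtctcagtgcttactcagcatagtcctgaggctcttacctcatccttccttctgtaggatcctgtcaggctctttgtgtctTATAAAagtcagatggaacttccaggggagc
Ccr1: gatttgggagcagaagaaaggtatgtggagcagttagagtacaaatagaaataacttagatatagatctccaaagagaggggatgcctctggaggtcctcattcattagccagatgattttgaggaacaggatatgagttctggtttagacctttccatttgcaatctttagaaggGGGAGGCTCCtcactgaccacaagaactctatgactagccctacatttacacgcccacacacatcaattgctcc

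The neighbouring ligand genes *Ccl8* and *Ccl12* each held a TATA box motif (TATAAA), which began 32 bases before the start in *Ccl8* and 31 bases before it in *Ccl12*. The same letters occurred on either strand in 12.3% of 32536 promoter windows of the same length. *Ccr1* held a kappaB motif that began 74 bases before its start, a motif found in 7.28% of the windows. The AP-1 motif (TGANTCA, in 6.73% of windows), the GAS motif (TTCNNNGAA, 7.04%) and the ISRE motif (2.98%) had no match in the 5 windows, and no searched motif lay in those of *Ccl3* and *Ccr2*. A match describes the letters only.

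The deposited values are counts per gene divided by a size factor of each tumor, here called normalized counts. The tumors held between 32924414 and 49099168 reads on genes. Tumor 10, from clone 4, stood apart: its summed fibroblast markers were 195098 normalized counts, against 28317.2 for the lowest clone 4 tumor, and its summed neutrophil markers 4239.7, against 700.3. *Pbrm1* was checked first. It stood at 7451.5 to 9870.6 normalized counts in the 5 control tumors and at 2483.8 to 3137.5 in the 10 knockout tumors, so the groups did not overlap. The mean fell by 1.69 on the log2 scale (SE 0.07, exact permutation p = 0.000333, the smallest that splits of 15 tumors into 5 and 10 can give). 

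Levels of the 9 genes differed widely within a tumor. Per kilobase of exon, *Ccl8* was the most abundant in the control tumors, with 6945 ± 2768 normalized counts per kb (SD, n = 5). *Ccl12* followed at 3462 ± 1252 and *Ccl2* at 1719 ± 454. *Ccl8* exceeded *Ccl12* in 4 of 5 control tumors, and *Ccl12* exceeded *Ccl2* in 5 of 5. The receptors *Ccr1* (1076 ± 169 per kb) and *Ccr2* (996 ± 379) stood close together, with *Ccr1* above *Ccr2* in 3 of 5 control tumors. *Ccr2* was above *Ccl7* (855 ± 297) in 3 of 5, so these neighbours in the order did not differ beyond their spread. *Ccl3* (183 ± 122), *Ccl4* (133 ± 80.6) and *Ccl5* (80.4 ± 50.5) were lowest, and *Ccl4* exceeded *Ccl5* in 3 of 5 control tumors. The exon length of *Ccr2*, 6.76 kb, is the union over its transcripts and lowers its value per kb. In clone 18 tumors, *Ccl7* (767 ± 210 per kb) ranked before both receptors, although it exceeded *Ccr1* (740 ± 114) in only 2 of 5.

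**Figure D1:**
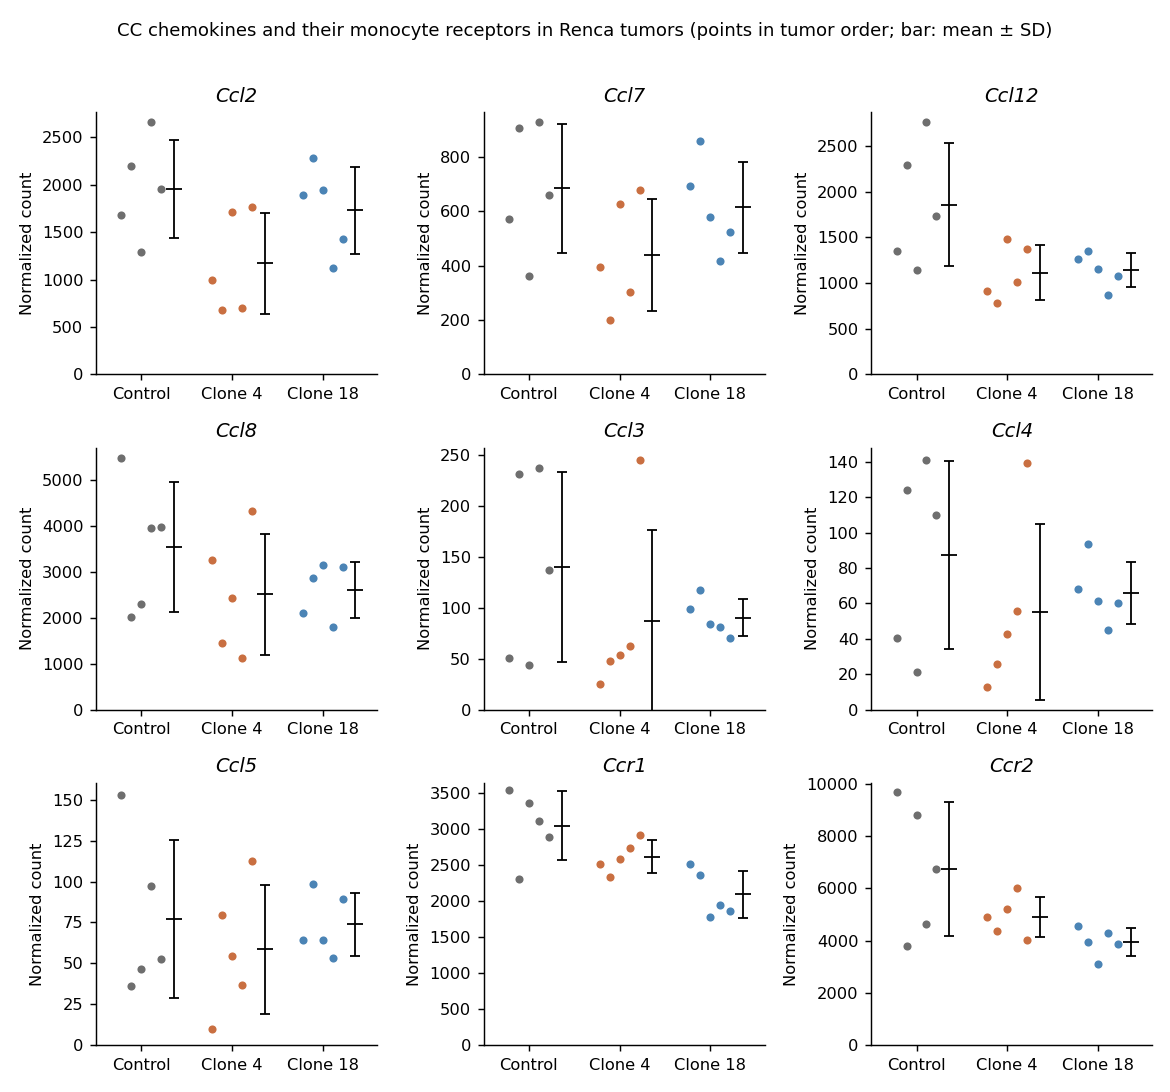
Normalized counts of the 9 genes (y axes, 1 panel per gene) in 5 control, 5 clone 4 and 5 clone 18 tumors (x axes). Each point is 1 tumor and the black bars give mean ± SD, with that of *Ccl3* in clone 4 clipped at 0. The control tumors spread most for *Ccl3*, *Ccl5* and *Ccl4* (coefficients of variation of 66.8%, 62.8% and 60.8%), and the groups overlap in each panel.

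Both knockout clones together were compared with the control tumors to ask whether loss of *Pbrm1* came with a lower level of this chemokine and receptor set. All 9 genes had a lower mean log2 value in the 10 knockout tumors, and 3 passed the test: *Ccl12*, *Ccr1* and *Ccr2*. Of all 18250 genes tested, 22.1% passed it in either direction and 12.9% as lower. With limma, *Ccl12* fell by 0.67 on the log2 scale (SE 0.19, adjusted p = 0.0155), *Ccr1* by 0.37 (SE 0.12, adjusted p = 0.0315) and *Ccr2* by 0.54 (SE 0.19, adjusted p = 0.0475). The median log2 difference over the 9 genes was -0.48, beside -0.02 over all genes tested. None of the 9 genes separated the groups without overlap, as 7.98% of all genes did in either direction. In whole tumors, fewer cells of a type and less RNA per cell cannot be told apart. Quantile normalization, which gave 53.5% of the calls over all genes as higher in place of 41.7%, left all 9 means lower.

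Each clone was then compared with the same 5 control tumors, so that the clone comparisons share their controls. In clone 4, all 9 means were lower on the log2 scale and 2 genes passed, *Ccl2* (log2 difference -0.83, SE 0.27, adjusted p = 0.047) and *Ccl12* (-0.71, SE 0.22, adjusted p = 0.0352, limma). Over all genes, 16.8% passed in this comparison and 10.0% as lower. In clone 18, 8 of 9 means were lower on the log2 scale, with *Ccl5* as the exception, and 3 genes passed, *Ccl12* (-0.64, SE 0.22, adjusted p = 0.0422), *Ccr1* (-0.54, SE 0.11, adjusted p = 0.00246) and *Ccr2* (-0.69, SE 0.21, adjusted p = 0.0211, limma). Over all genes, 24.7% passed in clone 18 and 14.2% as lower. The median log2 difference of the 9 genes was -0.70 in clone 4 and -0.32 in clone 18, beside -0.01 and -0.02 over all genes. Quantile normalization gave 51.0% of all calls as higher in place of 40.4% in clone 4, and 53.4% in place of 42.3% in clone 18. None of the 9 genes was without overlap in either comparison, beside 14.0% of all genes in clone 4 and 17.1% in clone 18.

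The clones were compared directly as the test of a difference between them. Limma called 0 of the 9 genes, 2 (*Ccl2* and *Ccr1*) were under 0.05 before adjustment, and edgeR and DESeq2 called 0. Over all genes 4.62% passed. All 7 ligands had a higher mean and both receptors a lower mean in clone 18 than in clone 4. *Ccl2* was 0.65 higher on the log2 scale (SE 0.27, adjusted p = 0.211) and *Ccr1* differed by -0.33 (SE 0.11, adjusted p = 0.115). That a gene passed in 1 clone and not in the other therefore does not show that the clones differ in it. None of the 9 genes was without overlap between the clones, beside 5.52% of all genes.

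**Figure D2:**
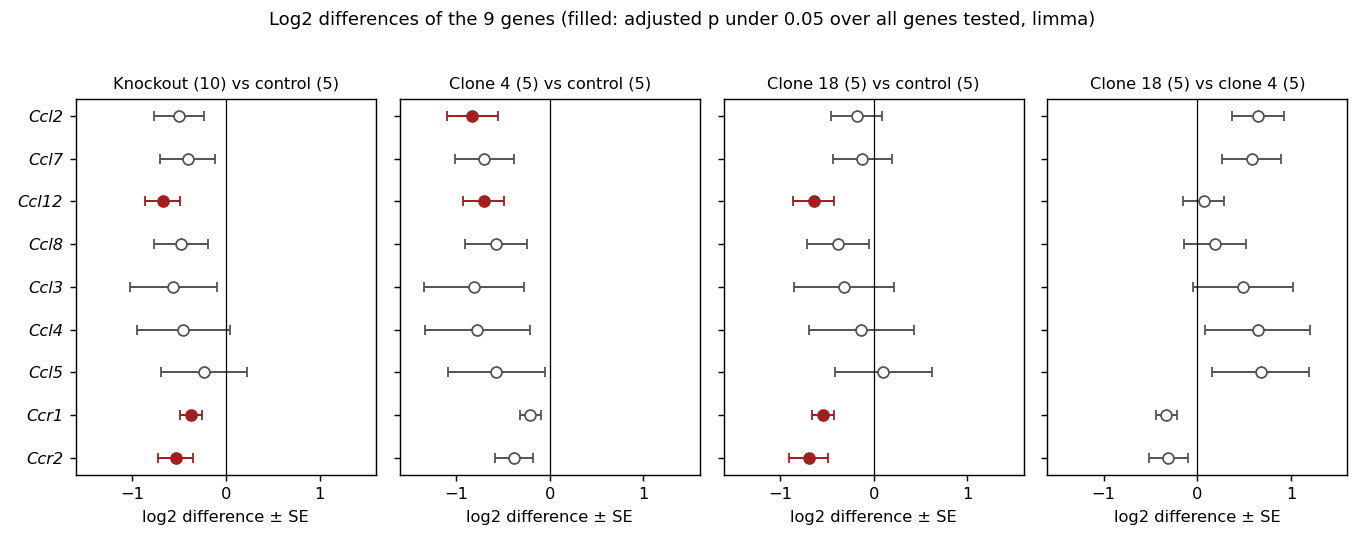
Log2 differences ± SE (x axes) of the 9 genes (y axis) in 4 comparisons, with the number of tumors in brackets. Filled red points passed the adjusted p of 0.05 over all genes tested (limma). *Ccl12* is filled in all 3 comparisons with the control tumors, and no point is filled between the clones.

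*Ccl12*, a ligand of CCR2, was the member that passed in each of the 3 comparisons with the control tumors. Its normalized counts were 1348.5, 2297, 1147.1, 2771.1 and 1731.9 in control tumors 1 to 5, with a mean of 1859 ± 672 (SD, n = 5). They were 916.1, 781.7, 1485.1, 1010.4 and 1375.7 in clone 4 tumors 6 to 10 (1114 ± 303) and 1264.4, 1355.9, 1157.1, 865 and 1082.6 in clone 18 tumors 11 to 15 (1145 ± 188). Control tumors 2, 4 and 5 were above every knockout tumor, whereas control tumors 1 and 3 lay within their range. All 10 knockout tumors were below the control mean on the log2 scale. The exact permutation test gave p = 0.0083 for both clones against control (0.04 on ranks) and 0.0556 for clone 4 and for clone 18. Exact permutation p values of the members, here and below, are not adjusted for the 9 genes. The call rested on the high control tumors: without tumor 2 the log2 difference was -0.58 (adjusted p = 0.0545, limma) and without tumor 4 it was -0.51 (adjusted p = 0.0592). In clone 4 the call was lost without any of control tumors 2, 4 or 5 or clone 4 tumors 6, 7 or 9 (limma, adjusted p from 0.0588 to 0.0961), and in limma without trend (0.0692). In clone 18 it was lost without any of control tumors 2, 4 or 5 or clone 18 tumors 11, 13, 14 or 15 (adjusted p from 0.0528 to 0.113), with upper quartile scaling (adjusted p = 0.052), quantile normalization (0.0566) and limma without trend (0.0756).

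*Ccl2*, the main CCR2 ligand of monocyte recruitment, passed in clone 4. It stood at 1680.4, 2193.9, 1294.5, 2661.2 and 1951.8 normalized counts in control tumors 1 to 5 (1956 ± 517). Clone 4 tumors 6 to 10 held 992.3, 675.6, 1715.8, 697.5 and 1765.6 (1169 ± 537), and clone 18 tumors 11 to 15 held 1886.9, 2277.5, 1943.8, 1116.6 and 1427.4 (1730 ± 458). Tumors 6, 7 and 9 of clone 4 were below every control tumor, and tumors 8 and 10 lay within the control range, as did 4 of 5 clone 18 tumors. The clone 4 call was lost in 5 of 9 other settings, among them edgeR (log2 difference -0.73, adjusted p = 0.074) and DESeq2 (-0.74, adjusted p = 0.0738), and when 1 tumor was left out in 10 of 15 cases. These were control tumors 1, 2, 4 and 5, clone 4 tumors 6, 7 and 9 and clone 18 tumors 11, 13 and 15 (limma, adjusted p from 0.0536 to 0.124). The exact permutation test of clone 4 against control gave p = 0.0635. For both clones together the log2 difference was -0.50 (SE 0.27, adjusted p = 0.201), and for clone 18 it was -0.18 (SE 0.27, adjusted p = 0.689).

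*Ccl7*, a CCR2 ligand encoded next to *Ccl2*, followed the same tumors. Its normalized counts were 571, 905.4, 360.7, 926.7 and 658.7 in control tumors 1 to 5 and 393.4, 199.7, 625.7, 302.7 and 678.4 in clone 4 tumors 6 to 10. Clone 18 tumors 11 to 15 held 691.9, 857.6, 579.9, 417 and 525.1. Clone 4 tumors 7 and 9 were below every control tumor, and all 5 clone 18 tumors lay within the control range. *Ccl7* did not pass with limma, with log2 differences of -0.41 (SE 0.29, adjusted p = 0.353) in both clones together and -0.70 (SE 0.31, adjusted p = 0.144) in clone 4. In clone 18 its difference was -0.12 (SE 0.31, adjusted p = 0.826), which turned to 0.01 when control tumor 4 was left out.

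*Ccl8*, a ligand of CCR8 in mice, was the most abundant ligand and passed no comparison. It stood at 5485.7, 2016, 2304.4, 3955.5 and 3984 normalized counts in control tumors 1 to 5. Clone 4 tumors 6 to 10 held 3267.1, 1442.9, 2436, 1116.2 and 4317.7, and clone 18 tumors 11 to 15 held 2097.1, 2858.2, 3153.3, 1803.2 and 3106.7. Its highest control value was in tumor 1 and its lowest in tumor 2, the reverse of their order for *Ccl2*, *Ccl7* and *Ccl12*. The log2 difference was -0.48 for both clones together (SE 0.28, adjusted p = 0.255, limma), -0.57 for clone 4 and -0.38 for clone 18.

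*Ccl3* and *Ccl4*, chemokines made by activated macrophages and lymphocytes, were much lower and varied widely among tumors of the same group. *Ccl3* stood at 51.1, 231.6, 43.6, 237.6 and 137.5 normalized counts in control tumors 1 to 5, at 25.1, 47.8, 53.7, 62.6 and 245.1 in clone 4 tumors 6 to 10 and at 99, 118.1, 83.8, 81.2 and 70.5 in clone 18 tumors 11 to 15. *Ccl4* stood at 40.6, 124.2, 21.3, 141.2 and 110 in the control tumors, at 12.5, 25.8, 42.8, 55.8 and 139.2 in clone 4 and at 68.4, 93.5, 61.5, 45.1 and 60.5 in clone 18. Control tumors 2, 4 and 5 and clone 4 tumor 10 were high for both genes. The ratio of the highest to the lowest tumor was 5.45 for *Ccl3* in the control group, 9.76 in clone 4 and 1.68 in clone 18. With limma, the log2 difference of both clones together was -0.56 for *Ccl3* (SE 0.46, adjusted p = 0.431) and -0.45 for *Ccl4* (SE 0.49, adjusted p = 0.567). Without tumor 10, which also had the most neutrophil and fibroblast marker RNA, the clone 4 difference of *Ccl3* moved from -0.81 to -1.29 (adjusted p = 0.0588) and that of *Ccl4* from -0.77 to -1.21 (adjusted p = 0.118, limma). *Ccl4* in clone 18 had a difference of -0.13 (SE 0.56), and its sign changed with the tumors left out.

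*Ccl5*, a T cell and macrophage chemokine, was the lowest of the 9 genes per kb. It stood at 153.2, 36.1, 46.4, 97.5 and 52.9 normalized counts in control tumors 1 to 5, at 9.6, 79.3, 54.7, 36.4 and 112.5 in clone 4 tumors 6 to 10 and at 64.3, 98.4, 64.1, 53.1 and 89.6 in clone 18 tumors 11 to 15. Tumor 6 was below every control tumor and the other 9 knockout tumors lay within the control range. The log2 difference of both clones together was -0.23 (SE 0.46, adjusted p = 0.776, limma). In clone 18 the difference was 0.10 with limma (SE 0.51), and -0.04 with edgeR, -0.03 with edgeR without a filter and -0.05 with DESeq2, so its direction was not settled.

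*Ccr1*, a receptor of CCL3 and CCL5 on myeloid cells, had the smallest coefficient of variation of the 9 genes in the control tumors (15.7%) and in clone 4 (8.62%). Its normalized counts were 3554.7, 2315.5, 3367.1, 3111.7 and 2898.1 in control tumors 1 to 5 (3049 ± 480), 2517.8, 2330.7, 2589.2, 2743.2 and 2926.4 in clone 4 tumors 6 to 10 (2621 ± 226) and 2513.5, 2362.4, 1781.5, 1949.6 and 1870.7 in clone 18 tumors 11 to 15 (2096 ± 323). Clone 18 tumors 13, 14 and 15 were below every control tumor and every clone 4 tumor, and no clone 4 tumor was below every control tumor. The exact permutation test, unadjusted, gave p = 0.016 for both clones against control (0.04 on ranks), 0.135 for clone 4 and 0.0238 for clone 18. The fall in clone 18 passed in all 9 other settings and whichever of the 15 tumors was left out (limma, adjusted p up to 0.00833). The call for both clones together was lost in limma without trend (adjusted p = 0.0557) and without any of control tumors 1, 3, 4 or 5 or clone 18 tumor 14 (adjusted p from 0.0504 to 0.0991).

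*Ccr2*, the receptor of CCL2, CCL7 and CCL12 and a marker of classical monocytes, had a coefficient of variation of 38.0% in the control tumors, 16.0% in clone 4 and 13.9% in clone 18. It stood at 9704.2, 3790.7, 8799.3, 4619.9 and 6743.6 normalized counts in control tumors 1 to 5 (6732 ± 2560). Clone 4 tumors 6 to 10 held 4907.4, 4361.3, 5219.1, 6028 and 4013.6 (4906 ± 783), and clone 18 tumors 11 to 15 held 4544.3, 3926.2, 3097, 4295.1 and 3862.3 (3945 ± 550). Control tumors 1, 3 and 5 were above every knockout tumor, and control tumors 2 and 4, the same pair that was highest for *Ccl2*, *Ccl7* and *Ccl12*, lay within the knockout range. The exact permutation test, unadjusted, gave p = 0.025 for both clones against control (0.129 on ranks), 0.23 for clone 4 and 0.0635 for clone 18. The call for both clones together was lost without any of control tumors 1, 3 or 5, clone 4 tumors 7 or 10 or any clone 18 tumor (limma, adjusted p from 0.06 to 0.168), and with quantile normalization (adjusted p = 0.0569) and limma without trend (0.0809). In clone 18 it was lost without control tumor 1 or 3 or clone 18 tumor 13 (adjusted p from 0.0577 to 0.0608). In clone 4 the log2 difference was -0.38 (SE 0.21, adjusted p = 0.241), and without control tumor 2 it was -0.56 (adjusted p = 0.0448).

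Tumors of the same group were compared for how the 9 genes varied together. For each of the 36 pairs, the Pearson correlation was taken over the 15 tumors on the log2 scale after the group means were taken off, with p values from 100000 permutations within groups and Benjamini-Hochberg adjustment over the 36 pairs. The CCR2 ligand genes varied together. *Ccl2* and *Ccl7* had r = 0.95 (rho = 0.95, permutation p = 2e-05, adjusted p = 0.00036) and r = 0.94 without the 2 tumors farthest from the median of *Ccl2*. *Ccl7* and *Ccl12* had r = 0.91 (rho = 0.90, permutation p = 3e-05, adjusted p = 0.00036) and 0.88 without the 2 farthest tumors. *Ccl2* and *Ccl12* had r = 0.87 (rho = 0.88, permutation p = 5e-05, adjusted p = 0.00045) and 0.85 without them. These 3 genes share their cluster with *Ccl8*, which correlated with *Ccl2* at only 0.59 (rho = 0.46, permutation p = 0.0728, adjusted p = 0.175) and with *Ccl12* at 0.25 (rho = 0.16, permutation p = 0.421, adjusted p = 0.659).

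The neighbouring genes *Ccl3* and *Ccl4* had r = 0.95 (rho = 0.975, permutation p = 2e-05, adjusted p = 0.00036) and 0.92 without the 2 farthest tumors. Across the clusters, *Ccl12* correlated with *Ccl4* at 0.79 (rho = 0.82, permutation p = 0.00424, adjusted p = 0.0305; 0.71 without the 2 farthest tumors). It correlated with *Ccl3* at 0.77 (rho = 0.77, permutation p = 0.00777, adjusted p = 0.0466) and at 0.67 without them. *Ccl7* had r = 0.70 with *Ccl4* and 0.67 with *Ccl3* (adjusted permutation p = 0.0815 each, and 0.0335 and 0.0382 for rho). *Ccl2* had r = 0.64 with *Ccl4* and 0.62 with *Ccl3* (adjusted permutation p = 0.0852 and 0.0815). *Ccl5* passed with none of the other 8 genes, and its highest r was 0.45, with *Ccl4* (rho = 0.26, permutation p = 0.209, adjusted p = 0.376). The receptors *Ccr1* and *Ccr2* had r = 0.66 (rho = 0.58, permutation p = 0.0193, adjusted p = 0.0815), which did not pass and was 0.47 without the 2 farthest tumors. *Ccr2* had negative correlations with its own ligands, -0.46 with *Ccl2* (rho = -0.47, permutation p = 0.0588, adjusted p = 0.163) and -0.62 with *Ccl12* (rho = -0.56, permutation p = 0.0704, adjusted p = 0.175), and neither passed. The sign was not particular to the CCR2 ligands. *Ccr2* had r = -0.68 with *Ccl3* (rho = -0.55, permutation p = 0.0283, adjusted p = 0.0852) and -0.55 with *Ccl4* (rho = -0.53, permutation p = 0.0858, adjusted p = 0.193), which did not pass either. All tumors come from 1 table with shared size factors, and cell composition was not measured apart from RNA.

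**Figure D3:**
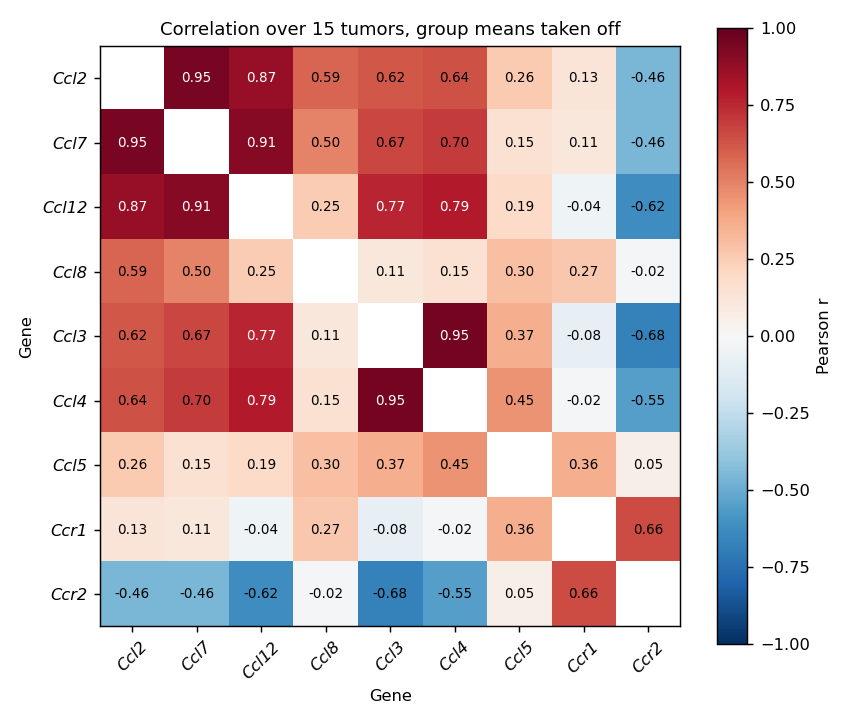
Pearson r for each pair of the 9 genes (both axes) over 15 tumors on the log2 scale, after the group means were taken off. *Ccl2*, *Ccl7* and *Ccl12* form a block of r from 0.87 to 0.95, *Ccl3* and *Ccl4* reach 0.95, and *Ccr2* is negative with *Ccl2*, *Ccl7*, *Ccl12*, *Ccl3* and *Ccl4*.

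The level of *Ccl12* relative to *Ccl2* is given as a description, since this pair was picked after its values were seen. The ratio of normalized counts of *Ccl12* to *Ccl2* within a tumor lay between 0.803 and 1.05 in the 5 control tumors, between 0.779 and 1.45 in clone 4 and between 0.595 and 0.775 in clone 18. All 5 clone 18 tumors were therefore below the lowest control and the lowest clone 4 tumor, by a margin of 0.775 in tumor 14 against 0.779 in tumor 10. On the log2 scale the mean ratio was -0.11 ± 0.17 in the control tumors, 0.01 ± 0.36 in clone 4 and -0.57 ± 0.18 in clone 18 (SD, n = 5 each). The ratio of *Ccl2* to *Ccr2* overlapped among the groups, with 0.147 to 0.579 in the control tumors, 0.116 to 0.44 in clone 4 and 0.26 to 0.628 in clone 18.

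**Figure D4:**
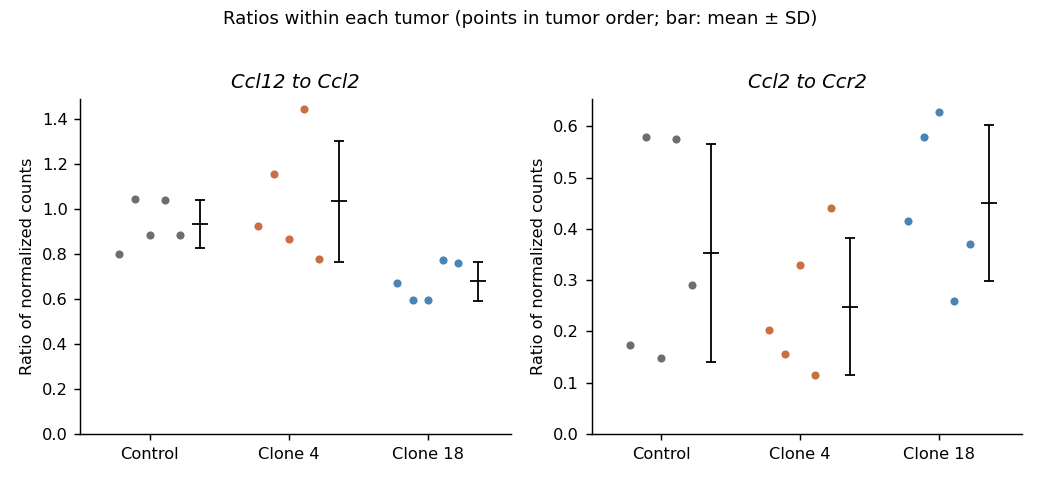
Ratio of normalized counts of *Ccl12* to *Ccl2* (left) and of *Ccl2* to *Ccr2* (right) within each tumor (y axes) by group (x axes), with black bars for mean ± SD. For *Ccl12* to *Ccl2* the 5 clone 18 tumors lie between 0.595 and 0.775, and for *Ccl2* to *Ccr2* the groups overlap.

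For 4 of the members, the 5 genes most like it were named among 13289 other genes whose mean reached 50 normalized counts, by the same correlation over the 15 tumors, given as a description. For *Ccl2* these were *C5ar1* (r = 0.92), the receptor of complement C5a on myeloid cells, *Ncf4* (0.90), a subunit of the phagocyte NADPH oxidase, *Rhbdl2* (0.90), *Litaf* (0.88) and *Cfl1* (0.87), which encodes the actin regulator cofilin. For *Ccl8* they were the death receptor gene *Fas* (0.86), *Enpp2* (0.86), which encodes autotaxin, *Mcoln2* (0.84), *Cfp* (0.82), which encodes properdin, and *Wfdc17* (0.82). For *Ccl5* they were *Ccr7* (0.89), the lymph node homing receptor of dendritic and T cells, *Fam46c* (0.86), *Gm10288* (0.86), *Serpina3g* (0.85) and *Ccl22* (0.84), a chemokine of mature dendritic cells. For *Ccr2* they were *Txndc16* (0.91), *Tnfaip8l2* (0.91), *Ly86* (0.91), which encodes the myeloid protein MD-1, *Prcp* (0.91) and *Ppfia4* (0.91). No gene stood on more than 1 of these lists.

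The other genes of monocyte attraction and growth were taken from a list of 8 genes, which includes fractalkine, its receptor and the growth factors of the macrophage lineage. With limma, 4 of 8 were lower in both clones together, 4 in clone 4 and 5 in clone 18, where 1 was higher. Over all genes, 12.9%, 10.0% and 14.2% were called lower in these comparisons, and 10.4% were called higher in clone 18. *Cx3cl1* encodes fractalkine, a membrane-bound chemokine of endothelial and epithelial cells. It stood at 235.6, 306.5, 201.2, 182.6 and 199.8 normalized counts in the control tumors, and between 80.2 and 154.8 in the 10 knockout tumors, without overlap. Of all genes, 7.98% were without overlap in this comparison in either direction. Its log2 difference was -1.003 (SE 0.18, adjusted p = 0.000783, limma) for both clones together, -0.95 in clone 4 and -1.06 in clone 18. *Il34* encodes a ligand of the CSF1 receptor. It stood at 731.1, 803.2, 668.6, 693.6 and 599.5 in the control tumors, between 394.8 and 587.7 in clone 4 and between 265.3 and 369.4 in clone 18. The 3 groups did not overlap. The shares of all genes without overlap were 14.0% for clone 4 and 17.1% for clone 18 against control, and 5.52% between the clones. The log2 difference of *Il34* was -0.61 in clone 4 (SE 0.13, adjusted p = 0.00296), -1.18 in clone 18 (SE 0.13, adjusted p = 5.7e-06) and -0.57 between clone 18 and clone 4 (SE 0.13, adjusted p = 0.0157, limma).

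The receptors of these ligands were lower as well. *Csf1r*, the receptor of CSF1 and IL34 on macrophages, had a mean of 16210 ± 3562 normalized counts in the control tumors, 12115 ± 1295 in clone 4 and 9149 ± 787 in clone 18 (SD, n = 5 each). Its log2 difference was -0.40 in clone 4 (SE 0.12, adjusted p = 0.0294, limma) and -0.80 in clone 18 (SE 0.12, adjusted p = 0.000144). *Cx3cr1*, the fractalkine receptor of nonclassical monocytes and tissue macrophages, stood at 9737.9, 4934.8, 9595.9, 4985.2 and 7750.2 in control tumors 1 to 5. In the knockout tumors it ranged from 2612.2 to 6289.6 in clone 4 and from 2557.7 to 3473.9 in clone 18. As for *Ccr2*, control tumors 2 and 4 were the lowest of their group for *Cx3cr1* and for *Csf1r*. The log2 difference of *Cx3cr1* was -0.67 in clone 4 (SE 0.22, adjusted p = 0.0429, limma) and -1.16 in clone 18 (SE 0.22, adjusted p = 0.00097). The clone 4 calls did not hold when 1 tumor was left out in 11 of 15 cases for *Cx3cr1* (adjusted p from 0.0517 to 0.108: control tumors 1, 3 and 5, clone 4 tumors 6, 8, 9 and 10 and clone 18 tumors 11, 12, 14 and 15). For *Csf1r* it was 5 of 15 (0.0528 to 0.075: control tumors 1 and 3 and clone 4 tumors 8, 9 and 10). Both were also lost in limma without trend (adjusted p = 0.0824 for *Cx3cr1* and 0.058 for *Csf1r*). *Csf1*, the other ligand of the receptor, passed in clone 18 (log2 difference -0.39, SE 0.10, adjusted p = 0.00787, limma), with a mean of 3977 ± 456 against 5189 ± 294 in the control tumors. *Csf2rb*, the shared receptor chain for GM-CSF, IL-3 and IL-5, was higher in clone 18 (0.28, SE 0.09, adjusted p = 0.0345), a call lost without any of control tumors 2, 3 or 4 or clone 18 tumors 11, 12 or 13 (adjusted p from 0.0596 to 0.0886) and in limma without trend (0.0579). Its close paralog *Csf2rb2* could take up part of its reads.

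**Figure D5:**
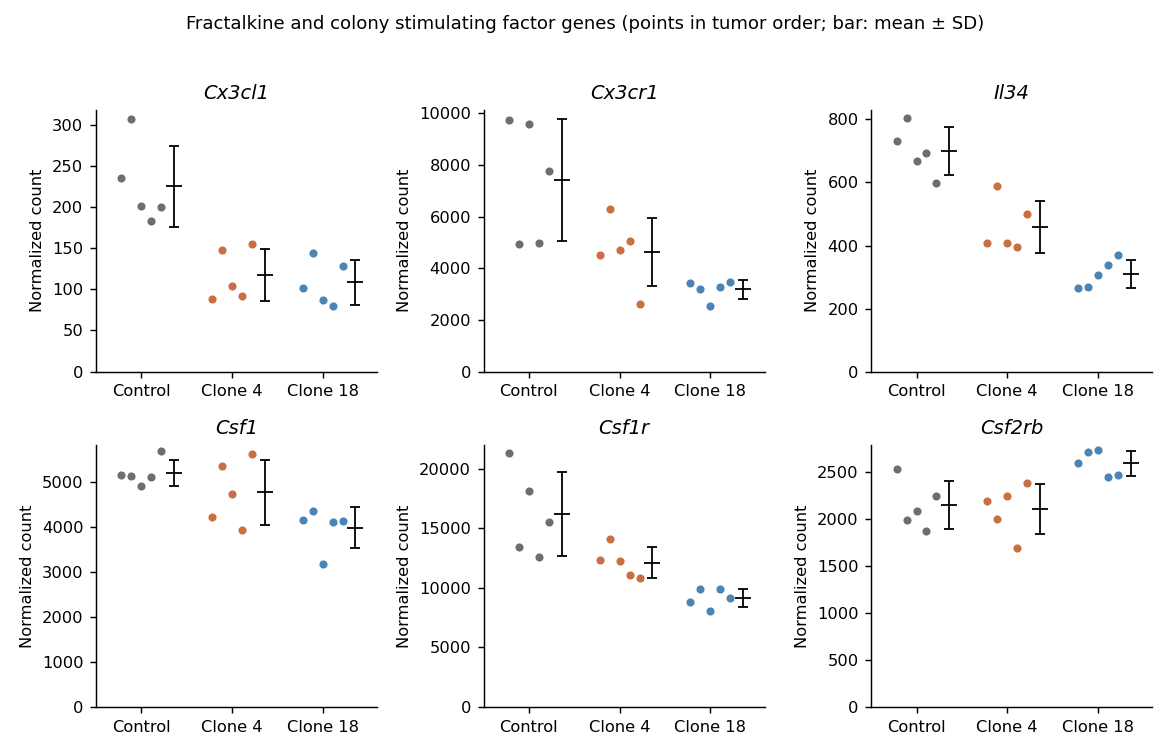
Normalized counts of *Cx3cl1*, *Cx3cr1*, *Il34*, *Csf1*, *Csf1r* and *Csf2rb* (y axes) in 5 control, 5 clone 4 and 5 clone 18 tumors (x axes), with black bars for mean ± SD. *Cx3cl1* and *Il34* lie lower in all 10 knockout tumors than in any control tumor, and *Il34* also separates clone 18 (265.3 to 369.4) from clone 4 (394.8 to 587.7).

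A list of 29 other genes was drawn up for the CC chemokine system, and it also takes in scavenging receptors such as *Ackr3* that are not particular to CC chemokines. Of these, 21 were in the table and in 16 of those the mean over all tumors reached 10 normalized counts. In both clones together, 2 of the 21 were higher with limma, a share close to the 9.23% of all genes called higher. *Ccl25*, a ligand of CCR9, had a mean of 199 ± 31.5 normalized counts in 10 knockout tumors against 149 ± 16.9 in 5 control tumors (log2 difference 0.41, SE 0.13, adjusted p = 0.031, limma). Its call was lost without control tumor 1, 2 or 4 (adjusted p from 0.0593 to 0.0848). *Ccl20*, the ligand of CCR6, was listed at 0 in the 5 control tumors and between 0 and 10.0 in the knockout tumors, and its call (adjusted p = 0.0484) was lost with a pseudocount of 5 (adjusted p = 0.111) and when 1 tumor was left out in 13 of 15 cases, all but clone 18 tumors 11 and 13 (adjusted p from 0.0508 to 0.0874). In clone 18, 3 of the 21 were higher with limma, beside 10.4% of all genes. These were *Ccl25* (0.52, SE 0.14, adjusted p = 0.0146), *Ccr10*, a skin homing receptor of T cells (0.72, SE 0.25, adjusted p = 0.0437), and *Ackr3*, a scavenging chemokine receptor (0.90, SE 0.29, adjusted p = 0.0316). The call of *Ccr10* was lost in 10 of 15 cases (adjusted p from 0.0512 to 0.117), without any of control tumors 1 to 4, clone 4 tumors 6 to 8 or clone 18 tumors 12 to 14. The call of *Ackr3* was lost in 6 of 15 (0.0568 to 0.072), without control tumor 1 or 2 or clone 18 tumor 11, 12, 14 or 15, and in limma without trend (0.0527). In clone 4, limma called 0 of the 21 genes, 4 were under 0.05 before adjustment, edgeR called 0 and DESeq2 called 1. Between the clones it called 0, with 1 under 0.05 before adjustment and 0 in edgeR and in DESeq2.

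Marker genes of other cells are given beside these values, and their part in the results above was not tested. The shares of all genes to read the counts against are 12.9% lower and 9.23% higher for both clones together and 14.2% lower and 10.4% higher for clone 18. For clone 4, 10.0% of all genes were lower, and 1240 of 18250 were higher. Of 15 macrophage markers, 5 were lower (*Mrc1*, *C1qa*, *C1qb*, *C1qc* and *Itgam*) and 1 higher (*Cd14*) in both clones together with limma. In clone 18, 8 were lower and 2 higher (*Cd14* and *Cd68*), and in clone 4, 3 lower and 1 higher. The summed macrophage markers ranged from 134899 to 204510 normalized counts in the control tumors, from 118207 to 156006 in clone 4 and from 106978 to 148752 in clone 18. Among the control tumors, tumor 2 had the lowest and tumor 1 the highest sum, as for *Ccr1*, *Ccr2*, *Ccl8* and *Ccl5*. The summed T cell (544.3 to 1535.4), NK cell (12.4 to 110.2) and dendritic cell (263.3 to 904) markers had the same lowest and highest control tumor. Of 9 classical monocyte markers, 1 (*Ly6c2*) was lower in both clones together, and in clone 18 limma, edgeR and DESeq2 called 0 and 0 were under 0.05 before adjustment. The sums of 9392.9 to 15196.6 in the control tumors, 7301.5 to 14502.6 in clone 4 and 7797.4 to 12590.7 in clone 18 overlapped. Tumor 4 had the highest sum of monocyte markers among the control tumors and tumor 3 the lowest, as for *Ccl2*, *Ccl7*, *Ccl12*, *Ccl3* and *Ccl4*. The summed neutrophil markers had the same extremes in the control tumors, with 961.7 in tumor 3 and 2061.9 in tumor 4. Of 10 T cell markers, 4 were lower in both clones together. For neutrophils it was 2 of 8 measured (*Csf3r* and *Ly6g*), of which edgeR called 1 of the list. *Ly6g* was near 0, with a mean of 1.64 normalized counts in the control tumors and 0.21 in the knockout tumors. For dendritic cells it was 1 of 7 and for NK cells 0 of 4, with 1 of the NK genes under 0.05 before adjustment and 0 in edgeR and DESeq2. Of 9 fibroblast and 7 endothelial markers, limma called 0 each, with 1 each under 0.05 before adjustment, and edgeR and DESeq2 called 0 fibroblast and 1 endothelial marker. Of 6 eosinophil and mast cell markers, limma, edgeR and DESeq2 called 0 and 0 were under 0.05 before adjustment. Of 8 epithelial markers of the tumor cells, 2 were lower and 1 higher. Summed skeletal muscle markers ranged from 99.4 to 198.5 in the control tumors, from 51.8 to 1187.4 in clone 4 and from 86.1 to 1923.7 in clone 18. Keratinocyte markers reached at most 18.0 in any tumor.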

How the data were processed

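RNA from 15 Renca tumors was measured by bulk sequencing. The authors used TopHat2 for alignment to mm10, HTSeq for counts per gene and DESeq for the size factor by which each tumor's counts were divided. The deposited signal is rounded to 0.1; versions, annotation and strand setting are not given in the sources used here. Up to 8000, 100% of values in every tumor were multiples of 1 step to within 0.15 reads, so whole reads could be recovered (32924414 to 49099168 per tumor, median 40860659). Columns without a sample numbered 0. The counts of each of 30 pairs of tumors within a group differed beyond sampling noise (chi-square over degrees of freedom at least 18.56).

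Of 18279 genes, 29 were at 0 in every tumor and 18250 were tested on log2(normalized count + 1) with limma 3.58.1 with trend, 10 knockout against 5 control tumors and, in a second fit, 3 groups with each other. The Benjamini-Hochberg adjustment ran over all genes tested, with a threshold of 0.05. Log2 differences of low genes are understated by the pseudocount of 1. Exact permutation tests were two-sided over all splits of 5 against 10 or 5 against 5 tumors, with smallest p values of 0.000333 and 0.00794.

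Named were the 9 members, *Pbrm1*, genes of the pathway lists past the threshold in any comparison, and the 5 genes most like *Ccl2*, *Ccl8*, *Ccl5* and *Ccr2*; other genes are named for marker lists only. The members, lists and tests were chosen with earlier results of these data known. Results were recomputed with a pseudocount of 0.1 or 5, a minimum mean of 10, upper quartile scaling, quantile normalization, limma without trend, edgeR 4.0.16 with and without a filter and DESeq2 1.42.0 on the recovered reads, and each tumor left out in turn. On simulated data for the comparison of 10 with 5 tumors (18241 genes), limma found 85.0% of genes changed by 1 on the log2 scale and 97.0% of those changed by 2, with 4.21% false calls. DESeq2 gave 9.22% false calls. Each change was planted in 100 genes with a mean of at least 10, and the clones were alike. The tumors themselves had 22.1% of genes called and differences between the clones, so these rates may not carry over. Some results are not reported here. R 4.3.3 and Python 3.11.15 were used.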

Additional observations from a re-analysis of the deposited data

Results flagged for a closer look

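Within groups of 5 tumors, 3 of the 59 groups looked at for the named genes had a tumor far from the others, where chance gives about 1 in 20 (2.95). *Ccl3* in clone 4 was 245.1 normalized counts in tumor 10 and 25.1 to 62.6 in the other 4 tumors. In clone 18, tumor 13 was the lowest for *Ackr3* (216.0, against 284.7 to 304.7) and for *Csf1* (3180.8, against 4100.6 to 4343.3).

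The clones were also compared directly. The log2 difference of *Il34* between clone 18 and clone 4 was -0.57 (limma, adjusted p = 0.0157), with all 5 clone 18 tumors below all 5 clone 4 tumors. *Ccr1* did not pass in limma (log2 difference -0.33, adjusted p = 0.115) and is listed for an exact permutation p = 0.0317 that is not adjusted for the 9 genes tested; 3 of 5 clone 18 tumors were below every clone 4 tumor. *Csf1r* (-0.40, adjusted p = 0.0656) and *Csf2rb* (0.31, adjusted p = 0.0642) did not overlap between the clones and did not pass in limma. Of all genes, 5.52% did not overlap between the clones.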

How the results depend on the processing

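Over the 9 genes and 4 comparisons, 309 of 324 log2 differences under the other settings, and 483 of 540 with 1 tumor left out, kept their direction and their side of the threshold. The number of members called (3, 2, 3 and 0 for both clones, clone 4 and clone 18 against control and clone 18 against clone 4) was 1 in the first comparison in limma without trend. In clone 4 it was 1 with quantile normalization, edgeR, edgeR without a filter and DESeq2, and 0 in limma without trend. With 1 tumor left out it ranged from 1 to 3 for both clones, 0 to 2 for clone 4 and 1 to 3 for clone 18. Between the clones, DESeq2 called 1354 of all genes and limma 844. The direction turned for *Ccl5* in clone 18 with edgeR (-0.0386), edgeR without a filter (-0.0326) and DESeq2 (-0.0473), from 0.10. With 1 tumor left out it turned for *Ccl5* in clone 18 (-0.11 to 0.40) and in both clones (-0.449 to 0.0646), *Ccl7* (-0.33 to 0.0102) and *Ccl4* (-0.55 to 0.12) in clone 18, and for *Ccl8* (-0.0627 to 0.425) and *Ccl12* (-0.0511 to 0.18) between the clones. The cause was not tested. No paired analysis was possible because the labels number the tumors in a row and match none across groups. Genes with few reads, such as *Ccl20*, give imprecise values. The settings for the pathway genes were added after seeing the data: *Cx3cl1*, *Il34* and, for clone 18 and both clones, *Csf1r* and *Cx3cr1* passed under every setting run.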
